A study of Mus musculus with 30 samples.

Results

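The replication-dependent histone genes were taken by symbol as every gene of GENCODE M21 whose name begins with Hist1h, Hist2h, Hist3h or Hist4, which gave 70 of the 54532 genes in the deposited tables. Of these, 67 are annotated as protein coding and 3 as pseudogenes. They encode linker histone H1 (6 genes) and the core histones H2A (20), H2B (19), H3 (12) and H4 (13). The Hist1 cluster on chromosome 13 holds 56 of them, the Hist2 cluster on chromosome 3 holds 10, the Hist3 cluster on chromosome 11 holds 3, and Hist4h4 lies alone on chromosome 6.

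The libraries came from female C57BL/6 mice, 6 to 8 weeks old, injected subcutaneously in the right flank 14 days before blood was taken. C group received 100 µl of HBSS, a salt buffer. S group (suboptimal dose, labelled early tumor) received 2000 cells and O group (optimal dose, labelled large tumor) received 100000 cells of B16F10, a mouse melanoma line. Platelets and peripheral blood mononuclear cells (PBMC) were sequenced as 5 libraries per group, 30 in all. By the labels each library was made from RNA of 3 to 10 pooled mice, and the study's methods give slightly different sizes for the platelet pools of S group. P values therefore measure the spread between pools. Platelets were taken from platelet-rich plasma after a slow spin, with no further depletion of leukocytes described, and PBMC from the cells left below that plasma. Platelet and PBMC libraries of a group can thus hold RNA of the same mice, and which mice went into which pool is not stated. The pools of O group had the same sizes in both tissues.

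Cells that copy their DNA need new histones in bulk, and the genes of these clusters are switched on mainly in S phase. Their mRNAs are the only known animal mRNAs that usually lack a poly(A) tail. They end instead in a short stem-loop, which SLBP, the stem-loop binding protein, holds while the U7 small nuclear RNP directs cleavage a few bases downstream. Some of the genes are also transcribed past the stem-loop to a regular poly(A) signal, above all in cells that have left the cell cycle. Platelets have no nucleus and hold RNA from megakaryocytes, which replicate their DNA repeatedly without dividing. The libraries were built on poly-T beads, which retain mRNA with a poly(A) tail. The values below are therefore levels after this selection and not those of all histone mRNA. Whether the histone reads came from tailed mRNA was not measured.

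The stem-loop was searched on the transcript strand in the 6 spellings of 16 bases that the histone transcripts themselves hold (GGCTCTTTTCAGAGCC, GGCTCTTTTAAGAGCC, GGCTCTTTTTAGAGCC, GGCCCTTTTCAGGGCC, GGCCCTTTTTAGGGCC and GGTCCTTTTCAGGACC). It was found in 44 of the 70 histone genes and in 2 of 21834 other protein-coding genes (0.00916%). Since the spellings came from histone transcripts, this contrast was partly set by the choice, and other spellings were not searched. The windows of 6 of the most abundant stem-loop genes are printed because they show how alike these ends are between a linker histone, an H2A and 4 H4 genes. The capitals mark the stem-loop. Each name is followed by its sequence from 5′ to 3′.
Hist1h1c: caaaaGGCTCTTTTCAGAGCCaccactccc
Hist1h2ac: ccaaaGGCTCTTTTCAGAGCCcccactttt
Hist1h4m: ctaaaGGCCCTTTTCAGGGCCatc
Hist1h4n: ctaaaGGCCCTTTTCAGGGCCatccaatta
Hist1h4i: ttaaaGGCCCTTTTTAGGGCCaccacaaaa
Hist1h4c: caaaaGGCCCTTTTCAGGGCCacccacaaa
On GRCm38 the windows lie at chr13:23739507-23739536 on the plus strand (Hist1h1c), chr13:23683468-23683497 on the minus strand (Hist1h2ac), chr13:21812124-21812147 on the plus strand (Hist1h4m), chr13:21831789-21831818 on the minus strand (Hist1h4n), chr13:22040957-22040986 on the minus strand (Hist1h4i) and chr13:23698080-23698109 on the minus strand (Hist1h4c). Each of these transcripts is a single exon.

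What follows the stem-loop differed between these genes. The annotated Hist1h1c transcript runs 840 bases past it and carries the poly(A) signal AATAAA in its last 40 bases. Hist1h2ac runs 2010 bases past it, Hist1h4c 454 and Hist1h4i 330, whereas Hist1h4n ends after 31 bases and Hist1h4m after 3. In all, 22 histone genes run more than 100 bases past the stem-loop, 22 end within 100 bases of it, and 26 hold none of the 6 spellings, among them the abundant Hist1h2bc and Hist1h2bn. The signal AATAAA stood in the last 40 bases of 15 of the 70 histone genes and of 64.2% of the other protein-coding genes. An annotated end is not a measured one, and read positions were not analysed here.

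Total counts ranged from 12259036 to 25360080 in platelet libraries and from 13390983 to 15973449 in PBMC libraries. Labels were checked against marker genes, as levels in counts per 1000000 after TMM scaling over all 30 libraries (CPM). The 11 platelet markers summed to between 15393 and 85641 CPM in platelets and to between 548 and 6954 CPM in PBMC, with Gp1bb near 0 in both (medians of 0.261 and 0). The 5 B cell markers summed to 469 to 1636 CPM in platelets against 1056 to 1938 in PBMC, and the 6 T cell markers to 135 to 325 against 329 to 703. Of the 4 monocyte markers Csf1r, Ly6c2 and Cd14 were lower in platelets (medians of 46.8, 46.8 and 3.19 CPM, against 369, 198 and 72.5 in PBMC), while F13a1, which platelets also carry, was higher (560 against 181). The 10 neutrophil markers summed to 210 to 4567 CPM in platelets and 148 to 3286 in PBMC, with Mpo and Elane at a median of 0 in platelets. The 4 hemoglobin genes took between 4.02% and 39% of the counts of a platelet library and between 3.23% and 24.5% of those of a PBMC library. Both fractions therefore held marker RNA of other blood cells. In such bulk RNA, fewer cells of a type and less RNA per cell cannot be told apart.

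More histone genes passed a limit on counts in platelets than in PBMC, while 63 had at least 1 count in each tissue. A gene was taken as detected with at least 10 counts in at least 5 of the 15 libraries of a tissue. By this measure 39 of 70 histone genes were detected in platelets and 24 in PBMC, against 25.7% and 28.5% of all genes. Of these, 23 were detected in both tissues, 16 in platelets alone and 1, Hist2h4, in PBMC alone. In platelets the detected genes were 3 of 6 for H1, 9 of 20 for H2A, 13 of 19 for H2B, 7 of 12 for H3 and 7 of 13 for H4. In PBMC they were 2 for H1, 4 for H2A, 9 for H2B, 2 for H3 and 7 for H4. The 16 genes detected in platelets alone included Hist1h1d, the H2A genes Hist1h2ab and Hist1h2ad, and 5 of the H3 genes (Hist1h3a, Hist1h3b, Hist1h3c, Hist1h3e and Hist2h3c2).

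The other 30 genes were detected in neither tissue, of which 25 had some counts. The most counts of any of them in a library were 54, for Hist4h4. Listed at 0 in all 30 libraries were Hist2h2aa1, Hist2h2aa2, Hist2h2bb, Hist2h3b and Hist2h3c1. A count of 0 allows a level of up to 0.15 to 0.585 CPM in a platelet library and 0.109 to 0.23 in a PBMC library (3 counts, TMM-scaled), limits that cover counting error only. All 479 windows of 50 bases in Hist2h2aa2 also occur in Hist2h2aa1, and Hist2h3b and Hist2h3c1 lie wholly under the exons of other annotated genes, so a count of 0 for these genes does not show a lack of their mRNA. Whether reads that fit several genes were counted is not given in the sources used here. At least 50% of the windows were shared with another histone gene in 13 of the 30 undetected and 19 of the 40 detected genes, and the split of reads within such a pair (Hist1h4m and Hist1h4n, Hist1h2ao and Hist1h2ap, Hist1h2bq and Hist1h2br, Hist1h3h and Hist1h3i) is uncertain.

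A few genes supplied most of the histone reads. The sum over the 70 genes was 0.395% ± 0.104 of all counts in platelets (SD, n = 15 libraries) and 0.0552% ± 0.0223 in PBMC (n = 15). It ranged from 0.183% to 0.56% in platelets and from 0.0192% to 0.103% in PBMC, so the tissues did not overlap. The 5 genes with most reads, Hist1h1c, Hist1h2bc, Hist1h4m, Hist1h4i and Hist1h2ac, gave 85.2% to 91.6% of the histone counts of a platelet library and 79.4% to 90.4% in PBMC. Hist1h1c, which encodes a linker histone that binds where DNA enters and leaves the nucleosome, alone gave a median of 40.2% of the histone counts in platelets and 50.3% in PBMC. Hist1h2bc, an H2B gene, gave 29.4% and 21.2%. H4 genes gave 19.4% and 13.7%, H2A genes 5.69% and 5.99%, and H3 genes 0.875% and 0.952%. The core histones pair in equal amounts in the nucleosome, but the reads of their genes in these libraries were far from equal, with H3 lowest in both tissues. These shares are not corrected for gene length, and reads that fit several genes may be missing from them.

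**Figure D1:**
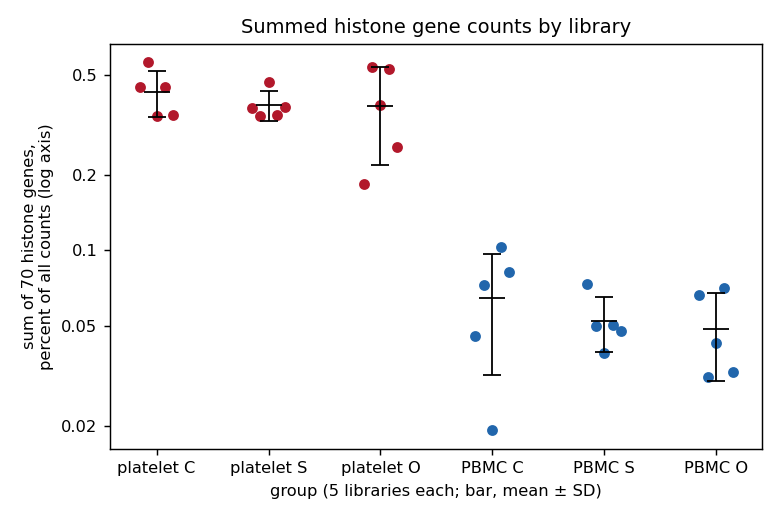
Sum of the 70 histone genes as percent of all counts (y axis, log scale) in each library of the 6 groups (x axis, points; bars, mean ± SD, 5 libraries each). All platelet libraries lie at or above 0.183% and all PBMC libraries at or below 0.103%, while the C, S and O groups of a tissue overlap.

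Levels were set side by side per kb of exon, since the genes differ in length. In platelets Hist1h1c stood at 1640 ± 696 CPM per kb, Hist1h2bc at 1586 ± 610 and Hist1h4m at 1414 ± 768 (SD, n = 15), which differ by less than the spread between libraries. The next were Hist1h4i (502 CPM per kb), the H2B gene Hist1h2bn (435), Hist1h4n (280), Hist1h4h (140), Hist1h2ac (92.4), Hist1h4c (89.5), Hist1h2ao (80.4), the H3 gene Hist1h3i (65.3) and Hist3h2a (24.8). Hist1h2ac and Hist3h2a are H2A genes of the Hist1 and Hist3 clusters. The exons of Hist3h2a overlap those of other annotated genes over 846 bases and those of Hist1h2ac over 246, and reads from such stretches cannot be assigned to 1 gene with certainty.

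In PBMC the same 7 genes led, in the same order, at lower levels. Hist1h1c stood at 124 CPM per kb, Hist1h2bc at 67.8, Hist1h4m at 48.3, Hist1h4i at 23.6, Hist1h2bn at 12.4, Hist1h4n at 7.19 and Hist1h4h at 5.88. They were followed by Hist3h2ba, an H2B gene (5.69), Hist1h2ac (4.91), Hist1h4c (3.39), Hist1h2ao (3.26) and Hist1h2bg (2.55). Of the 12 genes with the highest levels in each tissue 10 were shared. Across the 28 histone genes compared between tissues, Spearman's rho of the mean levels per kb was 0.896, a description over genes that share libraries and, in part, sequence.

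**Figure D2:**
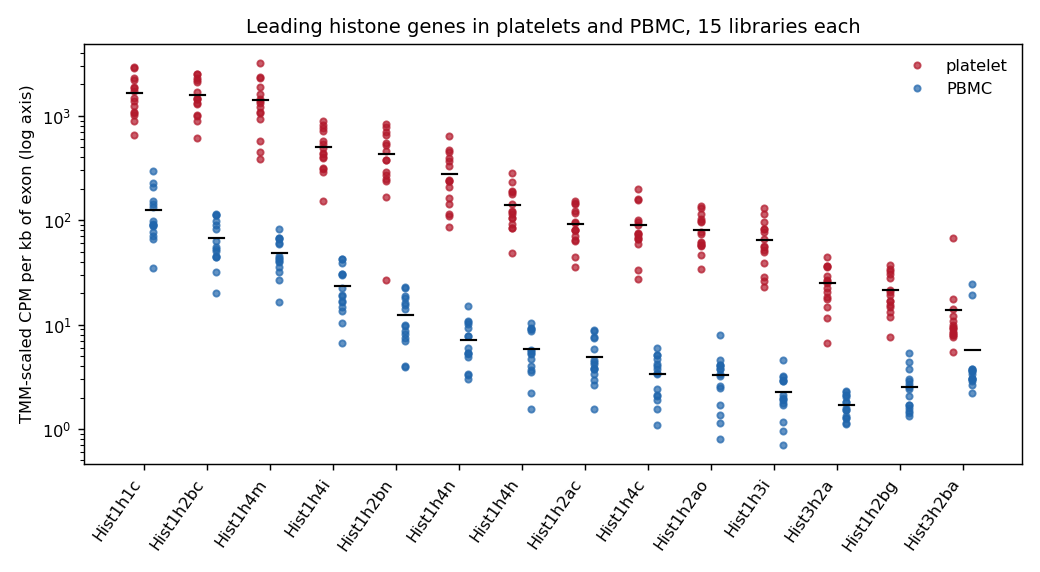
TMM-scaled CPM per kb of exon (y axis, log scale) of the 14 genes among the 12 highest in either tissue (x axis), with each of 15 platelet and 15 PBMC libraries as a point and the mean as a bar. The order of the first 7 genes is the same in both tissues, and Hist3h2ba is the gene whose tissues overlap.

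The H2A and H2B genes of the clusters often stand head to head and share the stretch of DNA between their starts. There were 14 such pairs with starts at most 500 bases apart, and 3 of them, chosen after their values were seen, show how far the partners could differ in level. Hist1h2bc stood at 1586 CPM per kb in platelets and Hist1h2ac, whose start lies 251 bases away, at 92.4. Hist1h2bn stood at 435 and its partner Hist1h2ak at 2.7. In the pair of Hist1h2ao and Hist1h2bq the H2A gene was higher, with 80.4 against 9.57. The corresponding values in PBMC were 67.8 and 4.91, 12.4 and 0.194, and 3.26 and 0.486, so each of the 3 pairs leaned the same way in both tissues.

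Genes of every kind of annotated 3′ end were detected. In platelets the 22 genes whose annotated transcripts run more than 100 bases past the stem-loop gave 53.7% of the histone counts, the 26 without a stem-loop 33.1% and the 22 that end within 100 bases of it 13.1%. In PBMC the shares were 65.5%, 26.1% and 8.43%. Among the genes that end near the stem-loop 16 were detected in platelets and 5 in PBMC, and among those that run past it 15 and 13. Longer genes collect more reads, and the median levels per kb in platelets were 2.45 CPM for genes ending near the stem-loop, 2.39 for those running past it and 0.617 for those without one. In PBMC these medians were 0.299, 0.374 and 0.115 CPM. The class without a stem-loop is one of annotation. It includes short annotated transcripts, such as those of Hist1h2bn (381 bases), Hist1h3i (411) and Hist1h4k (312), which may stop before a stem-loop. Whether the mRNAs of this class lack one was not tested.

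Platelets were then compared with PBMC over all 30 libraries with edgeR's quasi-likelihood test, group as a covariate and Benjamini-Hochberg adjustment over all 14342 genes that passed the filter on low counts. Of the 70 histone genes 28 passed the filter, 27 of them were higher in platelets at an adjusted P under 0.05 and 0 were lower. Among all genes tested 81.5% were called, 36.7% higher in platelets and 44.7% lower. The median log2 fold change of the 28 histone genes was 3.79, against -0.12 over all genes tested. The libraries of the tissues did not overlap for 18 histone genes, all higher in platelets, where 26.7% of all genes tested did not overlap and 12.3% stood higher. Genes that pass such a filter through the tissue where they are high tend to differ, so the count speaks for the 28 genes and not for all 70.

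**Figure D3:**
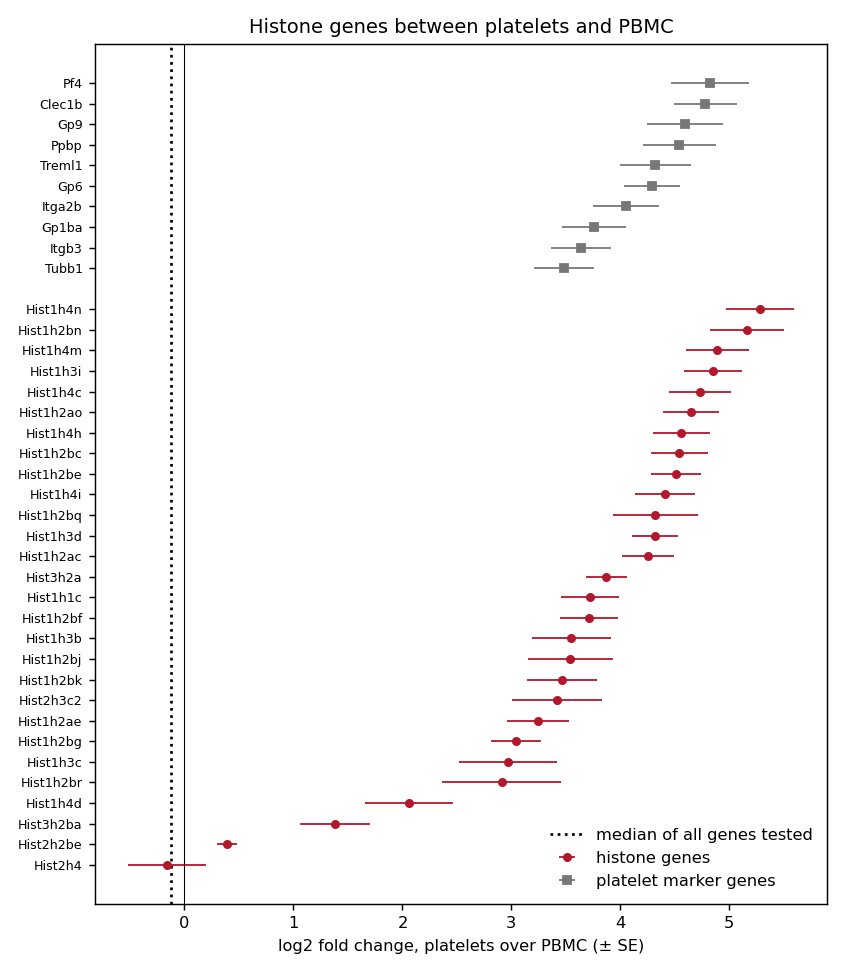
Log2 fold change of platelets over PBMC (x axis, bars ± SE) for the 28 histone genes tested (circles) and 10 platelet marker genes (squares), 15 libraries per tissue. Hist2h4 is the only one below 0, and 14 histone genes lie within the range of the platelet markers (3.48 to 4.82), 4 above it and 10 below it.

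The largest differences were those of Hist1h4n and Hist1h2bn. Hist1h4n had 120 ± 68.6 CPM in platelets and 3.09 ± 1.47 in PBMC (SD, n = 15 each), a log2 fold change of 5.28 (SE 0.314, edgeR adjusted P = 2.0e-15). Hist1h2bn had 166 ± 90.9 and 4.73 ± 2.38 CPM (log2 fold change 5.16). Its platelet libraries ran from 10.3 to 321 CPM, and the lowest of them still stood above the highest PBMC library at 8.65. Hist1h4m followed with 568 ± 309 and 19.4 ± 7.31 CPM (4.89), Hist1h3i with 26.8 ± 13.2 and 0.928 ± 0.42 (4.85), Hist1h4c with 73.4 ± 39.2 and 2.78 ± 1.21 (4.73) and Hist1h2ao with 38.6 ± 15 and 1.57 ± 0.846 (4.65). Hist1h4h reached 4.56 and Hist1h2bc 4.54, the latter with 1833 ± 705 CPM in platelets and 78.4 ± 36.1 in PBMC. Hist1h1c, first by level in both tissues, had 2558 ± 1086 and 194 ± 110 CPM and a smaller log2 fold change of 3.72 (SE 0.266).

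The 4 histone genes with the smallest values between the tissues are named here after those values were seen. Hist2h2be, an H2B gene without a stem-loop in its annotated transcript and with AATAAA near its end, had 8.27 ± 1.35 CPM in platelets and 6.31 ± 0.98 in PBMC, a log2 fold change of 0.39 (SE 0.0953, edgeR adjusted P = 0.000464). Hist2h4, whose transcript runs 1257 bases past the stem-loop to AATAAA, had 0.696 ± 0.818 and 0.662 ± 0.232 CPM (log2 fold change -0.16, SE 0.354, edgeR adjusted P = 0.681). Hist3h2ba had a log2 fold change of 1.38 and Hist1h4d one of 2.06, both with overlapping libraries. All other histone genes tested reached at least 2.91.

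The size of the difference depended on the scaling. TMM factors ran from 0.382 to 1.01 in platelets and from 0.93 to 1.78 in PBMC. With library sizes alone the median over all genes tested moved to -1.34 and that of the histone genes to 2.53, with 25 histone genes higher in platelets and 2 lower, Hist2h2be at -0.85 (edgeR adjusted P = 1.3e-06) and Hist2h4 at -1.38 (edgeR adjusted P = 0.00058). The call of Hist3h2ba was lost (0.12, edgeR adjusted P = 0.66), and Hist1h4d was at 0.79. Hist2h2be therefore changed direction with the scaling.

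The histone sum moved with platelet markers inside each tissue. Of the 11 platelet markers 10 were tested between tissues, with a median log2 fold change of 4.3. They ran from 3.48 for Tubb1, a tubulin of the platelet marginal band, to 4.82 for Pf4, the platelet chemokine. The 7 erythroid markers tested were higher in platelets too, with log2 fold changes from 1.51 to 3.09. The lists of B cell, T cell, monocyte and neutrophil markers had negative medians (-0.69, -1.56, -2.59 and -1.37). The ratio of the histone sum to the summed platelet markers was 15.8% ± 3.27 in platelets and 17.8% ± 3.12 in PBMC (SD, n = 15 each), so the ratio of the tissues overlapped where the sums did not. The PBMC library with the lowest histone sum, replicate 3 of C group at 117 CPM, also had the lowest platelet marker sum, 548 CPM. The one with the highest, replicate 1 of O group at 716 CPM, had the highest, 6954 CPM.

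Over the 15 PBMC libraries the log2 sums had a Pearson's r of 0.958 and a Spearman's rho of 0.975, given as a description with no P since the genes were chosen with earlier results known. Without the 2 libraries farthest from the median marker sum r was 0.943, and after subtracting group means 0.975. With library sizes alone it was 0.925. In platelets r was 0.862 and rho 0.825 (0.799 without the 2 farthest libraries, 0.901 after subtracting group means, 0.662 with library sizes alone). Both sums of a library share its scaling factor and depth. For the 7 erythroid markers found r was 0.16 in PBMC and -0.184 in platelets, and for the 10 neutrophil markers 0.51 and -0.0855. These values moved with the scaling and with single libraries. With library sizes alone r in platelets was -0.718 for erythroid and -0.633 for neutrophil markers, and without the 2 farthest libraries r in PBMC was -0.438 and 0.185. The part that platelet RNA in the PBMC libraries has in the histone levels of PBMC was not tested.

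**Figure D4:**
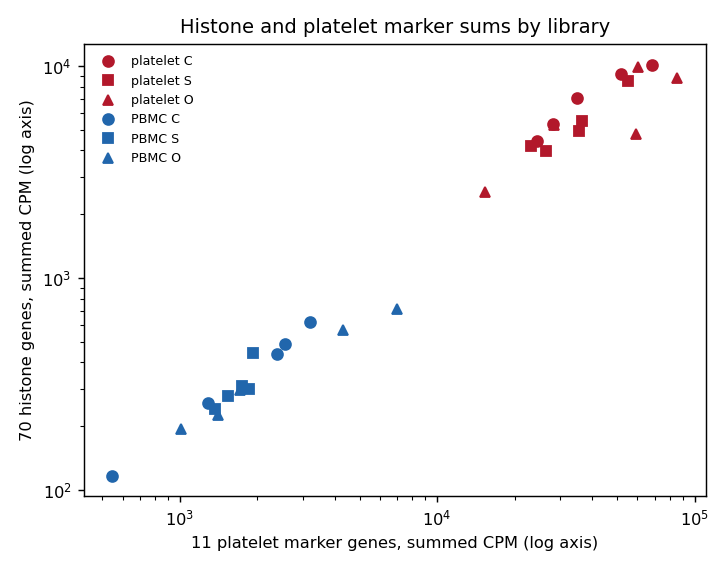
Summed CPM of the 70 histone genes (y axis, log scale) against that of 11 platelet marker genes (x axis, log scale), with 1 point per library, color for tissue and shape for group. The PBMC points run from 548 and 117 CPM to 6954 and 716 CPM, and the platelet points continue the same band at higher values.

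Other genes of histone biology are given beside the share of all genes called, 36.7% higher and 44.7% lower in platelets. These values hold for TMM scaling only. With library sizes alone the median over all genes tested moved to -1.34, and the lists were not counted at that scaling, so their directions can depend on it. Of 11 genes for variant histones 9 were tested, with 7 higher in platelets and 2 lower, and a median log2 fold change of 1.13 against -0.12 over all genes. H2afx, the H2A variant phosphorylated at DNA breaks, reached 2.02, H2afj 2.00 and H3f3a, a gene for H3.3, 1.82, while Cenpa, the centromeric H3, fell by 1.17. Of 16 genes for histone mRNA 3′ end formation and decay, 5 were higher and 6 lower, with a median of 0.05. Slbp itself had a log2 fold change of 0.32 and Eri1, a nuclease of histone mRNA decay, 0.92, while Srrt fell by 1.15. Of 7 chaperone genes 3 were higher and 0 lower (median 0.16), led by Chaf1a, a subunit of chromatin assembly factor 1, at 0.99. Of 24 S phase genes 15 were higher and 3 lower, with a median of 0.47. Rrm1, a subunit of ribonucleotide reductase, reached 0.95 and Tk1, thymidine kinase, fell by 1.70.

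The study looks for platelet RNA that marks occult tumors, and compares mice injected with few tumor cells, many, or none. By the paper, most mice given the dose of S group stayed free of tumors in its growth experiments. It states that S group pools could not avoid mice that might never form a tumor, and that this lowers fold changes. Results of S group below are therefore those of the injected dose, and a lack of calls there does not show a lack of effect in mice with tumors. In platelets the histone sum of C group was 7249 ± 2444 CPM, that of S group 5426 ± 1820 and that of O group 6249 ± 2998 (SD, n = 5 each), with overlapping libraries. By library sizes alone the means were 4282, 3798 and 3770 CPM, which put O group last in place of S group. At an unadjusted P under 0.05, the threshold of the study, 1 of 34 histone genes tested was lower and 0 were higher in S group than in C group, where 6.42% of all genes were called and 2.13% called lower. Between S group and O group 0 of 34 were called, where 13.9% of all genes were, and DESeq2 called 1. In O group against C group 1 of 36 was lower, where 4.79% of all genes were called and 2.17% called lower. No histone gene passed an adjusted P under 0.05 in any platelet comparison, in edgeR or in DESeq2, and none had groups that did not overlap, where 1.07%, 4.04% and 0.987% of all genes did in S group against C group, S group against O group and O group against C group.

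The gene called in S group against C group was Hist1h1c. Its 5 libraries of C group had 4458, 3596, 1669, 2974 and 2289 CPM, those of S group 1603, 1925, 2879, 1392 and 1709, and those of O group 2708, 3439, 2154, 4552 and 1023. The groups overlapped: 3 of C group stood above every library of S group, and the other 2 within its range. The log2 fold change of S group over C group was -0.61 (SE 0.286, edgeR unadjusted P = 0.0499, adjusted P = 0.769), and the call was lost in 7 of the 10 fits that left out 1 library. Platelet T cell marker sums were 263 to 325 CPM in S group and 228 to 263 in C group, and B cell sums 857 to 1636 and 772 to 972. Their part in the result was not tested. The number of histone genes called moved between 0 and 10 in the fits without 1 library, and the 10 were reached without replicate 3 of S group.

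In O group against C group the called gene was Hist3h2a. The 5 libraries of C group had 76.1, 79, 56.8, 53.4 and 48.5 CPM, those of O group 14.4, 78.7, 44.4, 31.9 and 24.9, and those of S group 56, 62.6, 94.6, 39.7 and 37.4. All libraries of O group but 1 lay below all of C group. The log2 fold change was -0.75 (SE 0.346, edgeR unadjusted P = 0.0498, adjusted P = 0.91), and the unadjusted P was 0.0581 with RLE size factors and 0.0527 in DESeq2. It was over 0.05 in 8 of the 10 fits that left out 1 library. The edgeR unadjusted P was 0.0131 with a replicate block, 0.0362 with all genes of at least 1 count, and 0.00236 without replicate 2 of O group. Platelet neutrophil marker sums were 484 to 4567 CPM in O group and 210 to 952 in C group, and B cell sums 469 to 853 and 772 to 972. Their part in the result was not tested.

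For Hist1h2bc the platelet libraries of C group stood at 2682, 2909, 1660, 1936 and 1506 CPM, those of S group at 1518, 1697, 2533, 1178 and 1019, and those of O group at 1154, 2896, 1668, 2429 and 711. Each group covered a wide range and all overlapped, and its edgeR unadjusted P was at least 0.171 in the 3 comparisons. Hist1h4m covered 182 to 916 CPM for C group, 432 to 946 for S group and 154 to 1285 for O group. Replicate 1 of O group, the library with 39% hemoglobin counts, had the lowest platelet levels of Hist1h2bn (10.3 CPM), Hist1h4m (154) and Hist3h2a (14.4).

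In PBMC the histone sum of C group was 384 ± 198 CPM, that of S group 314 ± 77.3 and that of O group 401 ± 230 (SD, n = 5 each). The order of the groups depended on the scaling and the summary: by library sizes alone the means were 645, 522 and 488 CPM, and the medians after TMM scaling were 436, 298 and 295, both with O group lowest. Between S group and C group 0 of 23 histone genes tested had an unadjusted P under 0.05 in edgeR and 0 in DESeq2, where 2.64% of all genes were called. Between S group and O group 3 were higher and 1 was lower, that is 17.4% of the histone genes against 12.2% of all genes (4.43% higher and 7.8% lower). In O group against C group 2 of 23 were higher (8.7%), where 11.9% of all genes were called and 7.56% called higher. At an adjusted P under 0.05 edgeR called 0 histone genes in each of the 3 comparisons, and DESeq2 called 1, Hist1h2bn, in S group against O group.

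For Hist1h2bn the S group libraries stood at 8.65, 6.09, 3.74, 5.93 and 5.35 CPM, those of O group at 1.53, 3.67, 3.09, 2.65 and 3.32, and those of C group at 2.81, 6.83, 1.51, 7.14 and 8.59. All libraries of S group lay above all of O group, while C group spanned both. The T cell marker sums likewise did not overlap, with 455 to 703 CPM in S group and 329 to 448 in O group, and their part in the result was not tested. It was the only histone gene of the 23 without overlap in that comparison, where 2.21% of all genes did not overlap and 1.67% stood higher in S group. In the other 2 comparisons of PBMC 0 histone genes did, against 0.76% of all genes for S group and C group and 2.06% for O group and C group. The log2 fold change of S group over O group was 1.00 (SE 0.239, edgeR unadjusted P = 0.00161, adjusted P = 0.296). The gene shares 86.4% of its windows of 50 bases with other histone genes.

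For Hist1h4m the S group libraries stood at 24.2, 26.6, 17, 23.7 and 18.1 CPM and those of O group at 12.9, 16, 17.4, 16.2 and 10.7. The lowest library of S group lay just under the highest of O group, and the log2 fold change was 0.52 (SE 0.159, edgeR unadjusted P = 0.00715, adjusted P = 0.304). The unadjusted P was 0.116 with all 3 groups in one fit. The H2A gene Hist1h2ao stood at 3.79, 1.81, 1.54, 1.82 and 1.6 CPM among S group libraries and at 2.22, 0.648, 0.824, 0.543 and 1.2 among those of O group, which overlapped, with a log2 fold change of 0.91 (SE 0.404, edgeR unadjusted P = 0.0456, adjusted P = 0.393). The P was over 0.05 in 7 of the 10 fits that left out 1 library, up to 0.139 without replicate 1 of S group.

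Hist3h2ba was lower in S group than in O group and higher in O group than in C group at the unadjusted threshold. Its O group libraries stood at 15.2, 1.84, 2.26, 11.7 and 1.37 CPM, those of S group at 2.22, 2.06, 2.29, 1.85 and 1.78, and those of C group at 2.19, 1.61, 2.29, 1.9 and 1.85. Only replicates 1 and 4 of O group stood above the rest, and the other 3 lay within or below the range of C group. The log2 fold change of O group over C group was 1.78 (SE 0.668, edgeR unadjusted P = 0.0225, adjusted P = 0.369), with an unadjusted P of 0.0762 without replicate 1 and 0.063 without replicate 4. With a replicate block it was 1.18 (edgeR unadjusted P = 0.0906). The log2 fold change of S group over O group was -1.74 (SE 0.659, edgeR unadjusted P = 0.0235), and -1.14 with a replicate block (edgeR unadjusted P = 0.105). It was -1.11 without replicate 1 of O group (edgeR unadjusted P = 0.0802) and -1.41 without replicate 4 (edgeR unadjusted P = 0.0651). These 2 libraries also had the highest neutrophil marker sums of PBMC (3286 and 2413 CPM, against 1621 at most in the others), the highest erythroid marker sums (292973 and 164543 CPM, against 136376 at most), the highest platelet marker sums (6954 and 4313 CPM, against 3216 at most) and the most Mki67 (569 and 79.1 CPM, against 31.7 at most). In platelets the library with most Hist3h2ba, replicate 1 of O group at 41.5 CPM against 10.7 at most in the others, had the highest neutrophil and erythroid sums, 4567 and 1079905 CPM, and the most Mki67, 1010 CPM. The replicates 1 of O group in both tissues may come from the same mice and are not counted as independent. Their part in the result was not tested.

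Hist1h1e, a linker histone gene whose exons overlap other genes over 816 bases, had 0.689, 0.594, 0.875, 1.33 and 0.456 CPM in O group and 0.401, 0.432, 0.561, 0.357 and 0.315 in C group, from 8 to 22 counts a library. All but 1 library of O group lay above all of C group, and the log2 fold change was 0.96 (SE 0.319, edgeR unadjusted P = 0.0121, adjusted P = 0.346). With library sizes alone it was 0.56 (edgeR unadjusted P = 0.128). Hemoglobin took 6.52% to 24.5% of the PBMC counts of O group, 3.29% to 9.39% of those of C group and 3.23% to 8.62% of those of S group. With library sizes alone the median over all genes in O group against C group moved to -0.37, and 1 histone gene, Hist3h2ba, was then higher and 8 were lower, against 2 and 0 with TMM scaling.

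**Figure D5:**
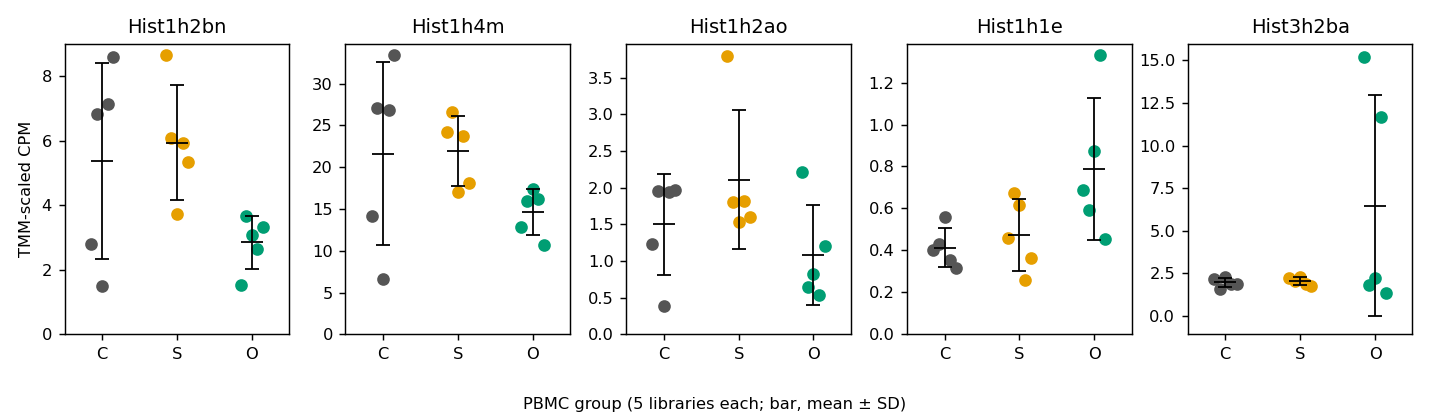
TMM-scaled CPM (y axis) of the 5 histone genes with an unadjusted P under 0.05 in a PBMC comparison, by group (x axis, 5 libraries each as points, bars with mean ± SD). Hist1h2bn in S group lies wholly above O group, from 3.74 CPM upwards, and 2 libraries of O group set the mean of Hist3h2ba.

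In S group against O group of platelets, the S phase list had 11 of 23 genes lower and 0 higher at an unadjusted P under 0.05, where 13.9% of all genes were called. Its median log2 fold change was -0.43 against -0.01 over all genes. Without replicate 1 of O group, the library with the highest neutrophil and erythroid sums, 8 of 23 were lower (median -0.33, 14.9% of all genes called), and over all fits without 1 library 7 to 13 were, an alternative added after the data were seen. Top2a, a topoisomerase of dividing cells, had a log2 fold change of -1.01 and the ribonucleotide reductase gene Rrm1 -0.75, while Mki67, a proliferation marker, had 15 ± 4.29 CPM in S group and 220 ± 442 in O group (SD, n = 5 each). Replicate 1 of O group held 1010 CPM of it and the other 4 held 16.9 to 30.1. Lymphocyte markers separated the same libraries, with B cell sums of 857 to 1636 CPM among S group and 469 to 853 among O group, and T cell sums of 263 to 325 and 135 to 253. Their part in the result was not tested. In the same comparison Slbp (-0.49), Cstf2 (-0.45) and Eri1 (-0.38) were lower among the 15 genes of 3′ end formation and decay tested, 2 of 7 chaperone genes and 1 of 9 variant histone genes were lower, and 0 of the 34 histone genes were called. In S group against C group the S phase list had 1 of 22 lower in platelets (6.42% of all genes called) and 2 of 24 higher in PBMC (2.64%), and in O group against C group 3 of 24 higher in platelets (4.79%). In PBMC S group against O group had 6 of 24 higher and 3 lower (12.2%), and O group against C group 4 higher and 3 lower (11.9%). Without replicate 1 of O group these were 5 and 0, with 9.66% of all genes called, and 1 and 3, with 10.5%. Of the 9 variant histone genes tested in PBMC, 3 were higher in O group than in C group (H3f3a, H2afj and H2afz, with log2 fold changes of 0.82, 0.97 and 0.22) and 2 were lower in S group than in O group.

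The response to the tumor cells was also compared between tissues, as an interaction over all 30 libraries. Of 40 histone genes tested 1 had an unadjusted P under 0.05 in each of the 2 interactions, where 5.38% of all genes were called for S group against C group (3.33% higher) and 6.59% for O group against C group (3.89% higher). It was Hist2h4 in both, with 0 histone genes past the adjusted threshold in edgeR. DESeq2 was not run on the interactions. The C group is shared by the 2 interactions, and its platelet libraries had between 0 and 5 counts of Hist2h4.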

How the data were processed

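The deposited files hold raw read counts per gene, 1 table for platelets and 1 for PBMC, with 15 libraries each. The authors selected mRNA on poly-T beads, prepared NEBNext Ultra libraries, aligned the reads with HISAT2 (2.0.5) and counted them with featureCounts (1.5.0-p3). The submitters' processing notes also name DESeq2 1.16.1 and the build mm9. The gene identifiers were those of GRCm38, and 54409 of 54532 were found in GENCODE M21, from which symbols, exons and GRCm38 coordinates were taken. The strand setting and the handling of reads shared by several genes are not given in the sources used here. Columns were mapped to samples by title. A label field calls platelet samples PBMC and was not used.

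Pairs of groups were compared within a tissue with edgeR 4.0.16 (R 4.3.3; filterByExpr, TMM, quasi-likelihood test, Benjamini-Hochberg adjustment over all genes tested). Tissues and interactions were fitted over all 30 libraries. Tables were made with Python 3.11.15 and pandas 2.3.3. The test was checked on simulated data. DESeq2 1.42.0, RLE size factors, library sizes alone, no filter beyond 1 count, a replicate block, a joint fit of the 3 groups of a tissue, and fits without each library in turn were the alternatives.

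Members and lists were chosen with earlier results of these data known. Named were the 12 genes with the highest level per kb in each tissue, each histone gene with an unadjusted P under 0.05 between groups (at most 15 per comparison) or past the adjusted threshold, and, between tissues, the 8 of largest fold in each direction past an adjusted P of 0.05 without overlap. Other genes were named after their values were seen.

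Replicate numbers were taken to pair the samples only where every pair of same-numbered libraries deviated together with r above 0.1. This was so for S group against C group of PBMC (r from 0.17 to 0.471), a hint from the data since the labels give the numbers no meaning. With a replicate block 0 histone genes were called there, as without it. No 2 libraries of the same group agreed within counting noise.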

Additional observations from a re-analysis of the deposited data

Results flagged for a closer look

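Among 102 sets of 5 libraries, those of 16 named genes and of the summed histone level in each group, 9 had a library apart from its group by Dixon's 95% criterion, where chance gives about 5%. Replicate 1 of S group stood highest in PBMC for Hist1h1c (224 CPM, next 142), Hist1h4h (4.32, next 2.67) and Hist1h2ao (3.79, next 1.82). Its platelet marker sum of 1925 CPM was the highest of the S group PBMC libraries. Replicate 3 of C group stood lowest in PBMC for Hist3h2a (2.46 CPM, next 4.36) and had the lowest platelet marker sum, 548 CPM.

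In platelets Hist1h4n was highest in replicate 3 of S group (278 CPM, next 105), whose platelet marker sum of 55239 CPM led its group. Hist1h4c was highest in replicate 2 of C group (129 CPM, next 73.3) and in replicate 2 of O group (163 CPM, next 60.1). Replicate 1 of O group stood highest for Hist3h2ba (41.5 CPM, next 6.03) and Hist2h4 (3.31 CPM, next 1.03), and had the highest neutrophil and erythroid marker sums, 4567 and 1079905 CPM. The part of these markers in the values was not tested.

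The change in Hist2h4 differed between platelets and PBMC at the unadjusted threshold. The interaction, as log2 fold change in platelets minus that in PBMC, was 1.85 for S group against C group (SE 0.832, edgeR unadjusted P = 0.034, adjusted P = 0.907) and 2.31 for O group against C group (SE 0.847, edgeR unadjusted P = 0.0107, adjusted P = 0.581). It rests on 0 to 21 counts in a platelet library. The call for O group was lost without platelet replicate 1 of O group (1.36, edgeR unadjusted P = 0.0863), and that for S group in 5 of the 20 fits that left out 1 library (down to 1.38). Without that same O group library Hist4h4 had an O group interaction of -4.59 (edgeR adjusted P = 0.0381), against -1.27 (edgeR adjusted P = 0.904) with it. Hist4h4 was detected in neither tissue by the limit used. The fit without that library kept PBMC replicate 1 of O group, which may hold the same mice.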

How the results depend on the processing

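Between tissues 27 of 28 or 28 of 29 histone genes tested were called when 1 library was left out, and 52 of 65 with all genes of at least 1 count. Counts between groups were small and moved readily. With all genes of at least 1 count they were 8, 5 and 8 in platelets (S against C, S against O, O against C group), 1, 11 and 5 in PBMC, and 5 and 3 for the interactions of S and O group. With library sizes alone they were 1 (S against O) and 0 (O against C) in platelets and 9 in both PBMC comparisons with O group. In platelet S against C the 1 call was then Hist1h2br, higher in S group, in place of Hist1h1c, which was lower. The replicate block also called Hist1h2br higher in place of Hist1h1c. RLE size factors gave 0 for O against C in platelets. DESeq2 gave 1 (S against O) and 0 (O against C) in platelets, and 6 (S against O) and 4 (O against C) in PBMC. Fitting all 3 groups together gave 0 (S against C) and 1 (S against O) in platelets and 4 in PBMC O against C. In PBMC S against O it again gave 4, of which 2, Hist1h2bn and Hist3h2ba, were those of the separate fit. Between groups, replicate numbers outside PBMC S against C were taken as shared numbers only. Between tissues, same-numbered O group libraries, which may hold the same mice, had r from 0.074 to 0.498, and the block left 27 calls. The replicate block gave 1, 1 and 2 calls in platelets (same order), 3 in PBMC S against O, 1 in PBMC O against C, and 2 and 1 for the interactions of S and O group.

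Leaving out 1 library gave 0 to 10 (platelet S against C: 10 without S group replicate 3, 7 without C group replicate 5), 0 to 7 (platelet S against O: 7 without O group replicate 5), 0 to 4 (platelet O against C: 4 without O group replicate 2), 0 to 2 (PBMC S against C: 2 without C group replicate 3), 3 to 8 (PBMC S against O: 8 without S group replicate 3), 2 to 7 (PBMC O against C: 7 without C group replicate 3), and 0 to 2 and 1 to 4 for the interactions of S and O group (4 without platelet O group replicate 1). The causes were not tested.

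Between groups the directions that turned were those of genes with no call. Between tissues Hist2h2be, called higher at 0.39, was lower at -0.85 by library sizes alone. Hist1h4m ran from -0.12 to 0.32 in platelet S against C and from -0.20 to 0.24 in PBMC S against C when 1 library was left out. Hist1h2bc in platelet S against O ran from -0.31 to 0.14, with 0.03 by library sizes alone and 0.01 with the replicate block. Hist1h1c in platelet O against C ran from -0.39 to 0.06. In PBMC Hist1h2bc had 0.14 in S against O by library sizes alone. In O against C, Hist1h1c had -0.29 and Hist1h2bc -0.48 by library sizes alone, and ran from -0.17 to 0.60 and from -0.21 to 0.26. Hist2h4 between tissues ran from -0.44 to 0.04, the last without platelet O group replicate 5.

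With at least 1 count in 1 library 63 histone genes were detected in each tissue, and with 10 counts in all 15 libraries 21 in platelets and 14 in PBMC. The median histone sum of PBMC was 502 CPM by library sizes alone, against 298.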

Other observations

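Hist4h4, detected in neither tissue by the limit used and named after its values were seen, had 10.5 CPM (54 counts) in replicate 1 of O group in platelets. In PBMC it had 3.83 and 2.41 CPM in replicates 1 and 4 of O group. Those numbered 1 may share mice. These were the libraries with the highest neutrophil and erythroid marker sums of their tissue and the most Mki67 (1010, 569 and 79.1 CPM), those of PBMC also with the highest platelet marker sums (6954 and 4313 CPM), and the other 27 libraries held at most 0.635 CPM.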
